A study of Homo sapiens with 12 samples.

Results

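The messenger RNA of 49 chaperone genes was followed in SH-SY5Y cells, an established human neuroblastoma line, after 5 h with HPPE, zinc protoporphyrin or tin protoporphyrin. The genes code mostly for the folding machinery of the cytosol and the mitochondria. They were taken as the rows of the deposited count table whose Ensembl identifier pairs with 1 of 49 symbols, and fall into 11 classes: HSP70 (4 genes), HSP110 (3), HSP90 (2), cytosolic J-domain proteins or HSP40 (9), co-chaperones of HSP70 and HSP90 (8), BAG (4), small HSP (3), the chaperonin TRiC (7), mitochondrial chaperones (5), heat shock factors or HSF (2), and SERPINH1 and UBB. Each symbol matched 1 row, so the set holds 49 of 60710 listed genes, and all 49 were among the 16366 genes with enough counts to be tested. The rule names genes and uses no measured value, although the list was drawn up with earlier results of these data known.

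The series holds 12 libraries in 4 groups of 3. Wells of a 6-well plate with 2 mL of medium received 10 µL of DMSO alone (the control) or the same volume with a compound at a final 5 µM, so every group carried the solvent. Zinc and tin protoporphyrin carry the porphyrin ring of heme with zinc or tin in place of iron, and HPPE is not spelled out in the labels. One line, 1 dose and 1 time were used, and nothing in the labels says whether the 3 replicates of a group are separate cultures, so p-values measure the spread between these libraries only.

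Chaperones bind proteins that are unfolded, newly made or damaged, and keep them from clumping until they fold. HSP70 does this in cycles of ATP use that J-domain proteins start and that HSP110 and BAG proteins reset by releasing the nucleotide. HSP90 finishes the folding of kinases and steroid receptors with its own set of co-chaperones, TRiC encloses actin and tubulin, and HSPD1 with HSPE1 does the like in the mitochondrial matrix. Many of these genes are switched on together by the transcription factor HSF1, which is held inactive by chaperones and, when freed by misfolded protein, binds heat shock elements, inverted repeats of the unit GAA, in their promoters. Neurons are known for a weak heat shock response.

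Total counts ran from 1337028 to 9145399 per library. Values are CPM, the count of a gene scaled to a library of fixed size (with TMM factors), and a count of 3 was worth 0.337 to 2.26 CPM. This floor covers counting error only. Of 11 sympathoadrenal neuroblastoma markers, 10 were above 1 CPM in every library (TH, tyrosine hydroxylase, was near 0), and their sum was 5350 to 5620 CPM in the control and 4670 to 5190 CPM with the compounds. The mesenchymal-type markers summed to 535 to 641 CPM in the control and 614 to 774 CPM with the compounds, with PRRX1 at or near 0. All 4 fibroblast markers were above 1 CPM in every library. They summed to 292 to 318 CPM in the control and 243 to 290 CPM with the compounds, with COL3A1 at a control mean of 283 CPM. Of the leukocyte markers CD3E and LYZ were at 0 in every library, and PTPRC had 2 counts over all libraries. The part of such markers in the results below was not tested. Libraries also differed in how their deviations ran with transcript length: Spearman's rho across genes within a library ranged from -0.539 to 0.567, with group means of 0.0558 ± 0.465 (SD, n = 3) in the control, -0.341 ± 0.21 with HPPE, 0.391 ± 0.173 with zinc protoporphyrin and -0.0657 ± 0.541 with tin protoporphyrin. The members are short by comparison, with a median transcript of 2643 bases against 3327 for all genes tested. A fit with the length and GC trend taken out called 27 members for HPPE against DMSO in place of 19. It added AHSA1, DNAJB2, DNAJB6, HSPA9, UBB, TCP1, CCT4 and CCT5, all higher. The share of all genes called in that fit is not given here.

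At least 1 gene of every class except the heat shock factors was called higher with HPPE. In TRiC this was CCT3 alone, a call lost in 14 of 23 alternative fits. Both BAG calls, BAG2 and BAG3, were lost in the fit without DMSO control 1. Zinc and tin protoporphyrin each gave 1 called member. The 49 genes together took 10710, 10660 and 10960 CPM in the control libraries and 14340, 14900 and 14920 CPM with HPPE. With zinc protoporphyrin they took 10490, 10690 and 10010 CPM, and with tin protoporphyrin 10540, 10140 and 10270 CPM. Every HPPE library lay above all 9 others. As a share of all counts, the set went from 1.07% ± 0.0541 (SD, n = 3) in the control to 1.47% ± 0.0365 with HPPE, beside 1.02% ± 0.0387 and 1.04% ± 0.0485 with zinc and tin protoporphyrin. In the plot of class sums the HPPE libraries lie above the other 9 in 9 of 11 classes, and overlap them in BAG and HSF.

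**Figure D1:**
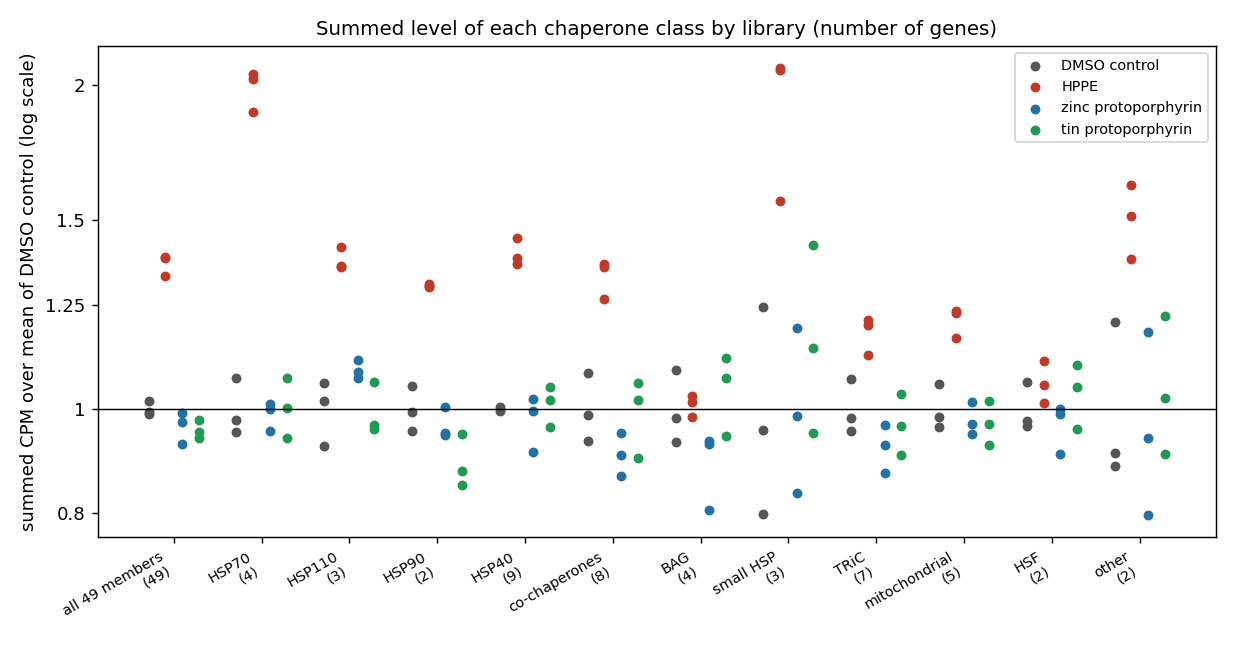
Summed CPM of the genes of each class in each of the 12 libraries, divided by the mean of the 3 control libraries (log axis; number of genes in brackets; the line marks the control mean). The HPPE libraries lie above all others in every class except BAG and HSF, and the HSP70 and small HSP classes moved furthest.

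In all, 19 of 49 members were called higher with HPPE than in the control at an adjusted p under 0.05, and 0 were called lower. Over all genes tested, 2.57% were called higher and 1.47% lower. Adjusted p-values here and below come from edgeR's quasi-likelihood test, two-sided, with Benjamini-Hochberg adjustment over the 16366 genes, and log2 fold changes carry their standard error. The median log2 fold change of the members was 0.31, against 0.016 for all genes, and 45 of 49 estimates were above 0. The 4 below 0 were STUB1, BAG1, BAG5 and TRAP1, of which BAG5 alone had an unadjusted p under 0.05, and DESeq2 also called 0 members lower. In 31 of 49 members every HPPE library lay above every control library, against 11.9% of all genes, and 2 members (STUB1 and BAG5) lay wholly below, against 9.44%. By class, the genes called higher were 3 of 4 in HSP70, 1 of 3 in HSP110, 1 of 2 in HSP90, 4 of 9 in HSP40, 3 of 8 co-chaperones, 2 of 4 in BAG, 2 of 3 small HSP, 1 of 7 in TRiC, 1 of 5 mitochondrial, 0 of 2 heat shock factors, and SERPINH1 of the last pair. The class medians ran from 1.2 (HSP70) and 0.96 (small HSP) down to 0.19 (mitochondrial), 0.082 (HSP110) and 0.078 (heat shock factors). In bulk RNA, fewer cells of a type and less RNA per cell cannot be told apart.

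**Figure D2:**
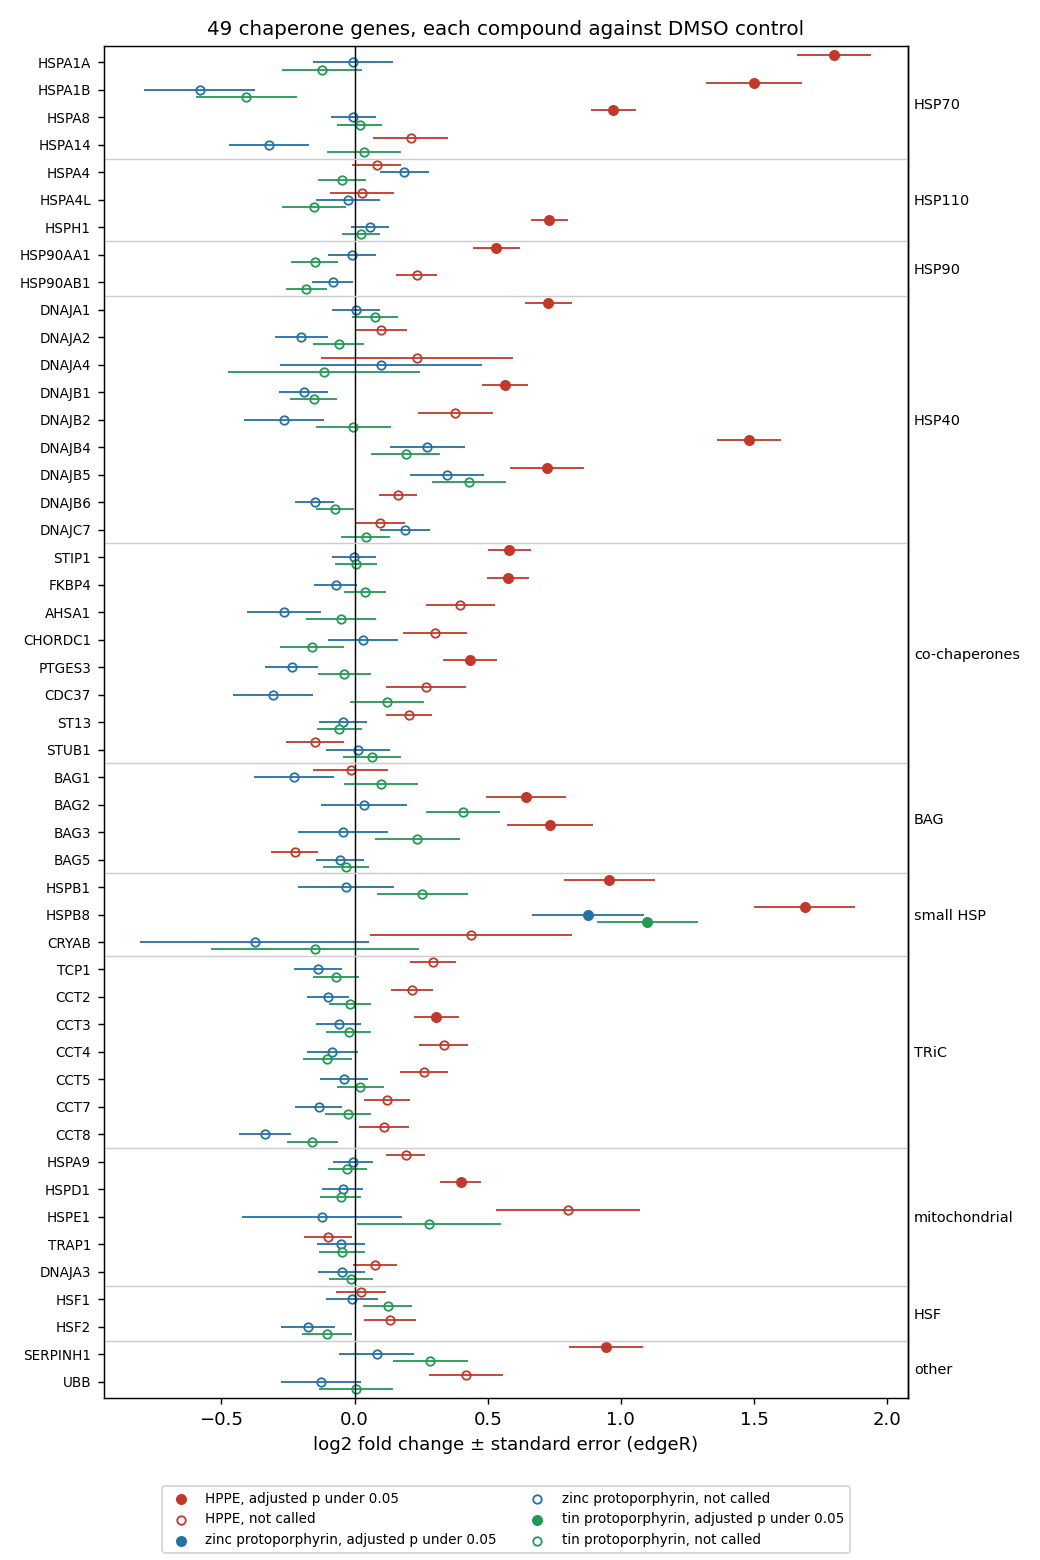
Log2 fold change (x axis, with standard error) of each of the 49 members for HPPE (red), zinc protoporphyrin (blue) and tin protoporphyrin (green) against the same 3 DMSO control libraries; filled points passed an adjusted p under 0.05. The 19 filled red points run from 0.31 (CCT3) to 1.80 (HSPA1A), and HSPB8 alone is filled in blue and green.

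The HSP70 genes moved most. HSPA1A and HSPA1B, the stress-inducible HSP70 copies that sit side by side at chr6:31815543-31817942 and chr6:31827738-31830254 (GRCh38), code for the same protein. HSPA1A stood at 20.4, 20.7 and 25.5 CPM in the control libraries and at 77.5, 71.6 and 74.1 CPM with HPPE. With zinc protoporphyrin it stood at 30.9, 21.98 and 17.6 CPM and with tin protoporphyrin at 18.4, 18.6 and 21.99 CPM. Every HPPE library thus stood far above the highest of the other 9, which overlapped each other. Its log2 fold change over the control was 1.80 ± 0.14 (3.49-fold, adjusted p = 2.79e-07). HSPA1B went from 22.8, 25.7 and 28.1 CPM in the control to 67.8, 74.1 and 69.3 CPM with HPPE, a log2 fold change of 1.5 ± 0.18 (adjusted p = 5e-05). With zinc protoporphyrin it stood at 28.6, 18.1 and 11.8 CPM and with tin protoporphyrin at 19.9, 15.2 and 21.4 CPM. Those 3 tin libraries lay below all 3 control libraries, but neither porphyrin passed the test for HSPA1B, at -0.58 ± 0.21 (zinc, adjusted p = 0.144) and -0.41 ± 0.19 (tin, adjusted p = 0.328).

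Reads cannot be assigned with certainty to 1 of 2 near-identical copies, so the pair was also tested as a sum. A sum brings together reads divided between the copies but not reads dropped in counting. AL671762.1 on the same strand overlaps 36.5% of the exon bases of HSPA1B. The sum was 43.1, 46.5 and 53.6 CPM in the control and 145.3, 145.7 and 143.4 CPM with HPPE. It was 59.5, 40.0 and 29.4 CPM with zinc protoporphyrin and 38.3, 33.8 and 43.4 CPM with tin protoporphyrin. The HPPE libraries agreed closely, and the zinc libraries spread the most. HPPE raised the sum by 1.64 ± 0.15 on the log2 scale (3.12-fold, adjusted p = 2.69e-06). The zinc and tin differences from the control were -0.27 ± 0.17 (adjusted p = 0.407) and -0.28 ± 0.16 (adjusted p = 0.44), with 95% intervals of -0.62 to 0.08 and -0.60 to 0.05.

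HSPA8, the constitutive HSP70 of the cytosol, rose as well from a far higher level per length. It stood at 1063, 1087 and 1186 CPM in the control and at 2060, 2226 and 2246 CPM with HPPE, and at 1121, 1123 and 1079 CPM and 1202, 1058 and 1117 CPM with zinc and tin protoporphyrin. The log2 fold change with HPPE was 0.97 ± 0.08 (1.96-fold, adjusted p = 1.34e-06), and the zinc and tin libraries overlapped the controls (tin estimate 0.02 ± 0.08). HSPA8 held most of the reads of the class and of the rise of its sum, from 1178 ± 72.4 to 2343 ± 103 CPM (SD, n = 3). HSPA14, a ribosome-associated HSP70, was not called (0.21 ± 0.14, adjusted p = 0.469). The annotation names 17 pseudogenes of HSPA8, so part of its reads can fit more than 1 place.

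Stretches of the promoters of these 3 genes are shown because each holds a letter match to the heat shock element upstream of its start. Capitals mark matches to GAANNTTC or TTCNNGAA, 2 facing units of the element, where N is any base. Sequences are RefSeq's, GRCh38.p14, 5′ to 3′ on the strand of the gene, from chr6:31815422-31815459 (plus strand), chr6:31827618-31827655 (plus strand) and chr11:123062171-123062199 (minus strand).
HSPA1A: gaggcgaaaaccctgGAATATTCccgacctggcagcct
HSPA1B: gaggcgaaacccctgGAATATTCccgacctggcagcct
HSPA8: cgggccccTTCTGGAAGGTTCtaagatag
In HSPA8 the 2 matches overlap by 3 letters and give 3 units in a row, 55 bases before the start; a like run lies 230 bases before it. HSPA1A and HSPA1B hold the same single match, 106 and 105 bases before their starts, on nearly the same flanks.

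Of the HSP110 genes, which release nucleotide from HSP70 and pull proteins out of aggregates with it, HSPH1 rose and the other two did not pass the test. HSPH1 stood at 360.2, 362 and 350.3 CPM in the control, 609, 588 and 587 CPM with HPPE, 381, 370.3 and 368 CPM with zinc protoporphyrin and 359, 375 and 357 CPM with tin protoporphyrin. The 3 HPPE libraries were well clear of the rest, whose groups lay close together. The log2 fold change was 0.73 ± 0.07 (1.66-fold, adjusted p = 5.48e-06). HSPA4, its constitutive relative, was 326, 299 and 257 CPM in the control and 322, 305 and 314 CPM with HPPE. Its HPPE and control libraries overlapped (0.08 ± 0.09, adjusted p = 0.679). With zinc protoporphyrin HSPA4 stood at 343.3, 330.7 and 337.8 CPM, above all other libraries, but was not called against the control. With tin protoporphyrin it stood at 266.3, 317.5 and 275.5 CPM. HSPA4L showed no difference that could be detected (0.03 ± 0.12, 95% interval -0.22 to 0.28).

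The HSP90 genes were the 2 most abundant members per length in the control, at 764 ± 23.2 RPKM (CPM per kilobase of transcript, mean ± SD, n = 3) for HSP90AB1 and 511 ± 35.6 RPKM for HSP90AA1. HSP90AA1, the inducible isoform, stood at 1921, 1783 and 1672 CPM in the control and at 2590, 2592 and 2595 CPM with HPPE. Zinc protoporphyrin gave 1730, 1842 and 1767 CPM and tin protoporphyrin 1485, 1785 and 1578 CPM. The HPPE libraries lay above all others and almost on the same value. The log2 fold change was 0.53 ± 0.09 (1.45-fold, adjusted p = 0.00172). HSP90AB1, the constitutive isoform, stood at 2111, 2029 and 1989 CPM in the control and 2402, 2387 and 2416 CPM with HPPE. It stood at 1917, 2009 and 1862 CPM with zinc protoporphyrin and 1775, 1850 and 1781 CPM with tin protoporphyrin. The HPPE libraries lay above all controls, yet the change of 0.23 ± 0.08 did not pass (adjusted p = 0.109), and the tin libraries lay below all controls (-0.18 ± 0.08, adjusted p = 0.284).

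The ratio of the 2 isoforms within a library needs no scaling. HSP90AA1 over HSP90AB1 was 0.91, 0.879 and 0.841 in the control and 1.08, 1.09 and 1.07 with HPPE. Each HPPE library lay above each control, with a mean log2 difference of 0.30. An exact permutation test of 3 against 3 libraries cannot go below p = 0.1, two-sided, and gave that value (0.3 after Benjamini-Hochberg adjustment over 9 such tests). The zinc libraries had ratios of 0.903, 0.917 and 0.949 and the tin libraries 0.837, 0.965 and 0.886, differing from the control by 0.07 (exact p = 0.2) and 0.03 (exact p = 0.7) on the log2 scale. The ratio of HSPA1A plus HSPA1B to HSPA8 was 0.0406, 0.0427 and 0.0452 in the control and 0.0705, 0.0655 and 0.0639 with HPPE, again with no overlap (log2 difference 0.64, exact p = 0.1, the smallest possible). With tin protoporphyrin it was 0.0319, 0.0319 and 0.0389, below all controls (-0.33, exact p = 0.1). With zinc protoporphyrin it was 0.0531, 0.0357 and 0.0272, on both sides of them (-0.20, exact p = 0.6). The ratio of HSPA4L to HSPA4, both HSP110 genes, was 0.125 ± 0.01 (SD, n = 3) in the control and 0.123 ± 0.015 with HPPE (exact p = 0.8).

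Both HSP90 promoters hold the 3-unit form of the element, HSP90AB1 2 times over, and they are printed because these genes moved by different amounts. They come from chr14:102087112-102087140 (minus strand) and chr6:44247763-44247858 (plus strand), each before 1 of the RefSeq starts of the gene.
HSP90AA1: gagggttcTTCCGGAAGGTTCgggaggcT
HSP90AB1: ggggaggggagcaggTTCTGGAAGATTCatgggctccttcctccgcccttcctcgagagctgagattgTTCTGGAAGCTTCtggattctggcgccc
The HSP90AA1 stretch holds 2 overlapping matches, and a further match begins at its last base. The HSP90AB1 stretch holds 4 matches in 2 overlapping pairs. The gene with more matches thus had the smaller estimate.

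**Figure D3:**
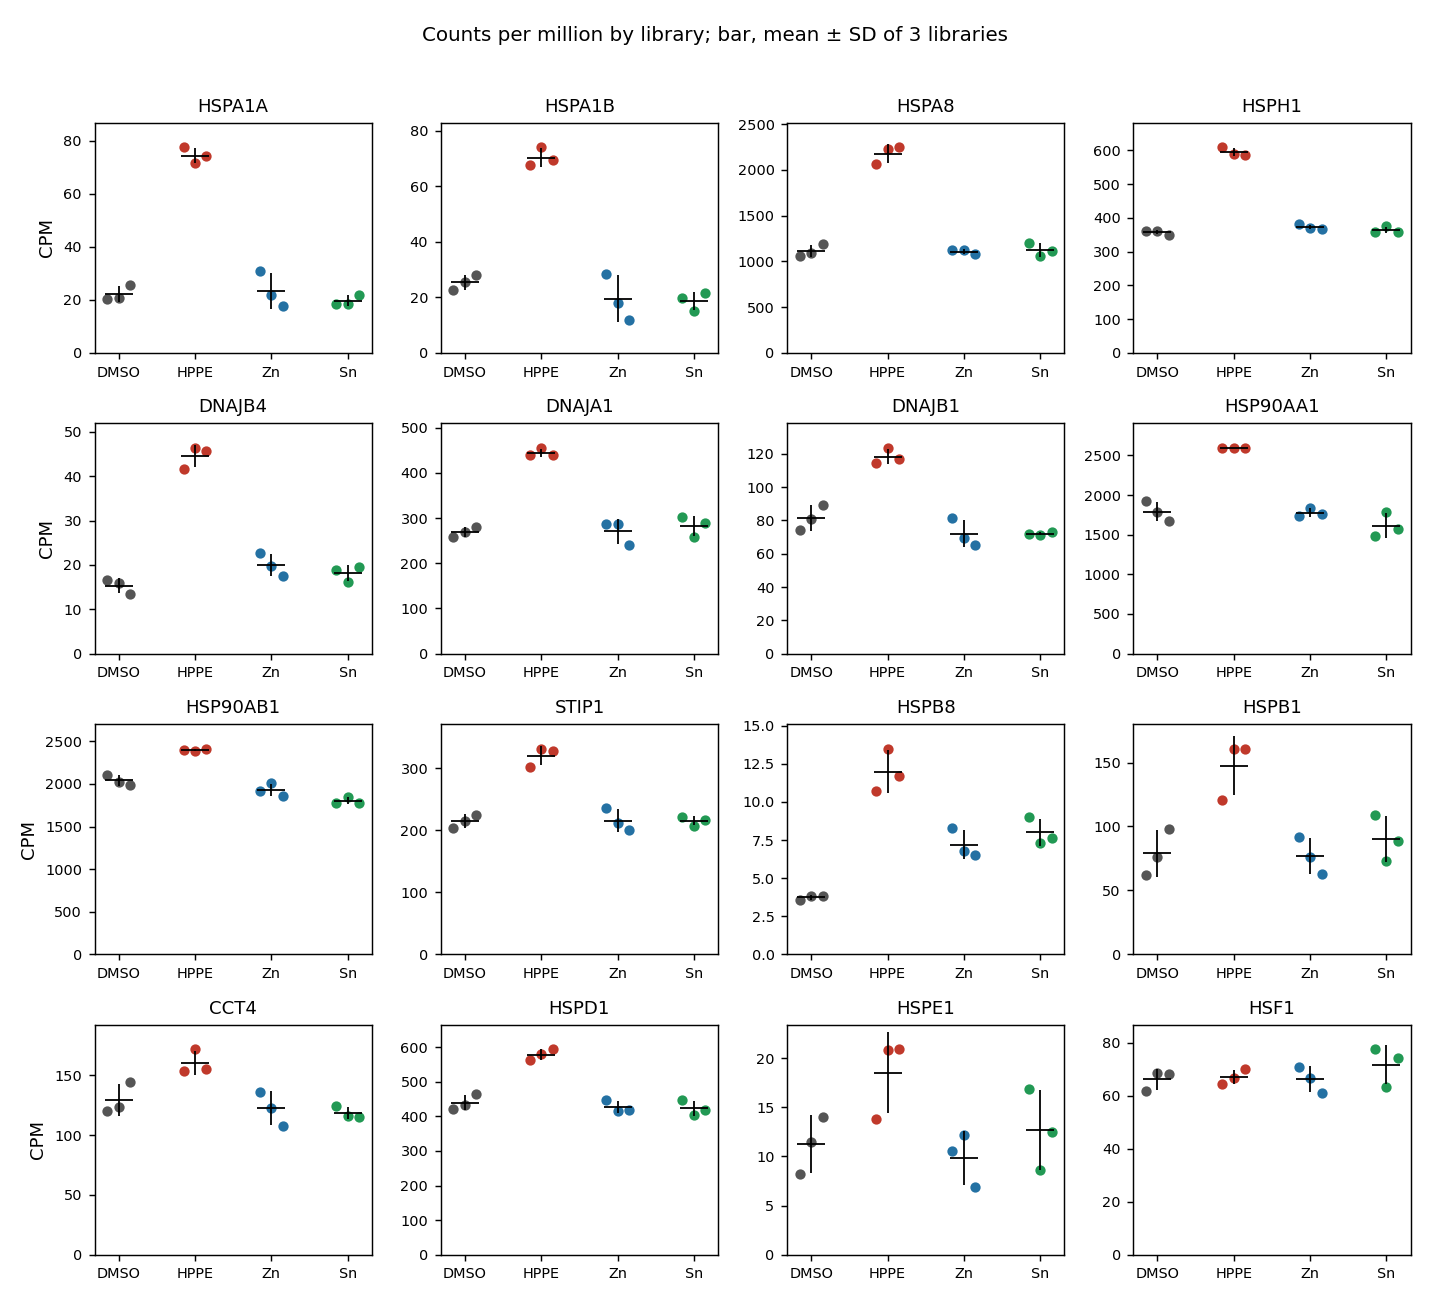
CPM (y axis, from 0) of 16 members in each library of the 4 groups (Zn, zinc protoporphyrin; Sn, tin protoporphyrin; bar, mean ± SD of 3 libraries). The HPPE points stand apart from all others in 14 panels and overlap with others for HSPE1 and HSF1.

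Of 9 cytosolic J-domain genes, 4 rose with HPPE, and all 9 estimates were above 0. J-domain proteins bring clients to HSP70 and switch on its ATPase. DNAJB4 changed most, from 16.7, 15.97 and 13.4 CPM in the control to 41.6, 46.4 and 45.6 CPM with HPPE, a log2 fold change of 1.48 ± 0.12 (2.8-fold, adjusted p = 7.54e-07). With zinc protoporphyrin it stood at 22.6, 19.8 and 17.6 CPM and with tin protoporphyrin at 18.9, 16.2 and 19.5 CPM. The zinc libraries lay just above all controls and the tin libraries overlapped them, and neither passed (0.27 ± 0.14, adjusted p = 0.289, and 0.19 ± 0.13, adjusted p = 0.543). DNAJA1, the most abundant J-domain member per length, went from 259, 269 and 280.1 CPM to 439, 455 and 440.1 CPM with HPPE (0.73 ± 0.09, adjusted p = 6.59e-05). The zinc libraries held 287, 286 and 239.6 CPM and the tin libraries 302, 258 and 289 CPM, on both sides of the control values. DNAJB1, the partner of HSP70 in taking apart aggregates, stood at 74.1, 80.8 and 89.3 CPM in the control and 114, 124 and 117 CPM with HPPE (0.56 ± 0.09, adjusted p = 0.000729). It stood at 81.3, 69.5 and 65.4 CPM with zinc protoporphyrin and 71.6, 71.2 and 73.05 CPM with tin protoporphyrin. The HPPE libraries stood above all 9 others.

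DNAJB5 went from 18.1, 20.9 and 20.4 CPM in the control to 28.01, 36.6 and 32.6 CPM with HPPE (0.72 ± 0.14, adjusted p = 0.00485). It stood at 20.3, 27.9 and 23.8 CPM with zinc protoporphyrin and 28.6, 24.3 and 26.4 CPM with tin protoporphyrin. All tin libraries exceeded all controls, but neither porphyrin's change was called (0.35 ± 0.14, adjusted p = 0.205, and 0.43 ± 0.14, adjusted p = 0.126). The call of DNAJB5 with HPPE was lost without DMSO control 1 or without HPPE 2, where its adjusted p reached 0.0561. The other 5 J-domain genes did not pass, with 0.38 for DNAJB2, 0.23 for DNAJA4, 0.16 for DNAJB6, 0.10 for DNAJA2 and 0.10 for DNAJC7. DNAJA4 was the scarcest member per length, at 1.96 ± 0.136 CPM (SD, n = 3) in the control, and its interval of -0.53 to 1.0 is wide.

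The promoters of DNAJB4, DNAJB1 and DNAJB6 are shown to set 2 genes that were called beside 1 that was not. They come from chr1:78004830-78004859 (plus strand), chr19:14518422-14518489 (minus strand) and chr7:157336858-157336900 (plus strand).
DNAJB4: agcatttgctgTTCTAGAAagtacagagac
DNAJB1: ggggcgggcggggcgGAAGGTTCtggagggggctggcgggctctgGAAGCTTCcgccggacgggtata
DNAJB6: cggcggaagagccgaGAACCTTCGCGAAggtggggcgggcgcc
In these stretches DNAJB4, which rose the most of the class, has 1 match, and DNAJB1 has 2 that do not overlap. DNAJB1 has 1 further match in another window. DNAJB6 has the 3-unit form and was not called (0.16 ± 0.07, adjusted p = 0.239). Every HPPE library of DNAJB6 nevertheless lay above every control, and the fit with length and GC taken out called it (0.27 ± 0.07, adjusted p = 0.0229).

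Of 8 co-chaperones, 3 rose. STIP1, the adaptor that hands clients from HSP70 to HSP90, stood at 204, 216 and 225 CPM in the control and 302, 332 and 327 CPM with HPPE, with no overlap (0.58 ± 0.08, 1.5-fold, adjusted p = 0.000271). Zinc and tin protoporphyrin gave 235, 212 and 199.8 CPM and 221, 207 and 217 CPM, overlapping the controls. FKBP4, an HSP90-bound immunophilin of steroid receptor complexes, went from 168, 174 and 186 CPM to 247, 264 and 274 CPM (0.57 ± 0.08, adjusted p = 0.000246). It stood at 164, 176 and 159 CPM with zinc protoporphyrin and 182, 169.6 and 188 CPM with tin protoporphyrin. These too overlapped the controls. PTGES3, the HSP90 co-chaperone p23, went from 184, 204 and 238 CPM to 269, 289 and 277 CPM (0.43 ± 0.10, adjusted p = 0.0185), and its call was lost without DMSO control 1 or 2, without HPPE 2 or 3, and with HPPE 2 and 3 summed. Zinc protoporphyrin gave 163, 188 and 171 CPM and tin protoporphyrin 216, 177 and 209 CPM. AHSA1, the activator of the HSP90 ATPase, went from 113, 119 and 145 CPM to 147, 173 and 167 CPM with HPPE, and the groups did not overlap although the change was not called (0.40 ± 0.13, adjusted p = 0.113). Its zinc libraries stood at 112, 107 and 92.6 CPM and its tin libraries at 145, 94.5 and 117 CPM.

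CHORDC1 (0.30), the kinase adaptor CDC37 (0.27), ST13 (0.20), which binds HSP70, and the ubiquitin ligase STUB1 (-0.15) did not pass. JMJD8 on the opposite strand overlaps 42.4% of the exon bases of STUB1. CHORDC1, an HSP90-binding protein, is printed since its promoter holds more matches than any other member's. The stretch is from chr11:90223084-90223112 (minus strand).
CHORDC1: ccgGAAAATTCGCGAAGGTTCCTGAAacg
It shows 4 of the 6 matches of the window, in an overlapping run. Its log2 fold change was 0.30 ± 0.12 (adjusted p = 0.207).

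The BAG proteins, nucleotide exchange factors of HSP70, held 2 genes that rose and 2 that were not called. BAG3, which guides HSP70 clients to autophagy, stood at 9.53, 12.01 and 12.8 CPM in the control and 20.5, 17.7 and 16.1 CPM with HPPE (0.73 ± 0.16, adjusted p = 0.0113), at 9.79, 10.99 and 10.7 CPM with zinc protoporphyrin and at 14.9, 11.4 and 12.8 CPM with tin protoporphyrin. The HPPE libraries were the 3 highest of the 12, and 1 tin library reached into the gap. BAG2, an inhibitor of STUB1, went from 11.6, 16.4 and 12.8 CPM to 21.1, 21.7 and 22.2 CPM with HPPE (0.64 ± 0.15, adjusted p = 0.0163). It stood at 11.3, 14.1 and 15.04 CPM with zinc protoporphyrin and 19.9, 17.1 and 17.9 CPM with tin protoporphyrin, where all 3 libraries exceeded the controls without passing the test (0.41 ± 0.14, adjusted p = 0.177). RAB23 on the opposite strand overlaps 42.7% of the exon bases of BAG2, and whether reads were counted by strand is not given in the sources used here. BAG1 (-0.02 ± 0.14) and BAG5 (-0.22 ± 0.09, adjusted p = 0.189) did not pass, and BAG5 was lower in all 3 HPPE libraries than in any control, at 63.4, 59.1 and 60.5 CPM against 70.6, 74.2 and 67 CPM. The calls of BAG3 and BAG2 were lost without DMSO control 1, that of BAG3 also without HPPE 1 and that of BAG2 also without HPPE 2 or 3.

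Among the small HSP genes, whose proteins hold unfolded chains without ATP, HSPB8 was the 1 member called higher with all 3 compounds. HSPB8, the BAG3 partner in chaperone-assisted autophagy, stood at 3.57, 3.83 and 3.83 CPM in the control and at 10.8, 13.5 and 11.7 CPM with HPPE. It stood at 8.28, 6.80 and 6.50 CPM with zinc protoporphyrin and 9.03, 7.31 and 7.65 CPM with tin protoporphyrin. All 9 treated libraries exceeded all 3 controls, and all HPPE libraries exceeded all porphyrin libraries. The log2 fold changes were 1.69 ± 0.19 with HPPE (3.23-fold, adjusted p = 2.51e-05), 0.88 ± 0.21 with zinc protoporphyrin (adjusted p = 0.0357) and 1.10 ± 0.19 with tin protoporphyrin (adjusted p = 0.0033). The 3 comparisons share their control libraries. The zinc call was lost in 12 of 23 alternatives: DESeq2, the replicate block, the compared groups alone, HPPE 2 and 3 summed, and the fits without DMSO control 1, 2 or 3, zinc protoporphyrin 1, 2 or 3, HPPE 3 or tin protoporphyrin 3 (adjusted p up to 0.15). The HPPE and tin calls were kept in all 23. HSPB8 is scarce, and its 3 control values rest on 27, 29 and 6 counts.

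HSPB1, the actin-associated small heat shock protein HSP27, went from 62.2, 76.3 and 98.3 CPM in the control to 121, 161 and 160.5 CPM with HPPE (0.96 ± 0.17, 1.94-fold, adjusted p = 0.00281). With zinc protoporphyrin it stood at 91.9, 75.9 and 63.04 CPM and with tin protoporphyrin at 109, 73.2 and 88.4 CPM. The HPPE libraries were the 3 highest, but the spread within every group was wide. CRYAB, the lens and muscle small heat shock protein, was near the floor at 3.46 ± 1.48 CPM (SD, n = 3) in the control, and no difference was detectable at this depth (0.44 ± 0.38, 95% interval -0.36 to 1.20). The stretches below are from chr12:119178832-119178861 (plus strand) and chr7:76302476-76302513 (plus strand) and show 1 match each.
HSPB8: tcatcacctccGAATATTCctgtgacagga
HSPB1: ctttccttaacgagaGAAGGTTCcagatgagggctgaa

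The 7 TRiC subunits in the set had small estimates, all above 0. The subunit CCT6A is outside the set and was not called with HPPE against DMSO (0.19 ± 0.07, adjusted p = 0.174). Their log2 fold changes with HPPE ran from 0.11 (CCT8) to 0.33 (CCT4), with a median of 0.26, and 1 was called. CCT3 stood at 367, 401 and 413 CPM in the control and 461, 493 and 505 CPM with HPPE (0.31 ± 0.08, adjusted p = 0.0487), at 372, 392.1 and 366 CPM with zinc protoporphyrin and at 419.7, 354 and 386 CPM with tin protoporphyrin. Its HPPE libraries were the 3 highest, yet the call lay at the threshold and was lost in 14 of 23 alternatives, among them each fit without an HPPE or zinc protoporphyrin library, without DMSO control 1 or 2 or without tin protoporphyrin 3. CCT4 stood at 119.7, 124 and 144 CPM in the control and 153, 172 and 156 CPM with HPPE, again with no overlap, and just missed (0.33 ± 0.09, adjusted p = 0.053). Zinc and tin protoporphyrin left CCT4 at 136, 123 and 108 CPM and 124, 116 and 115 CPM. The sum of the 7 subunits was 1677, 1723 and 1873 CPM in the control and 1972, 2103 and 2126 CPM with HPPE. With the length and GC trend taken out, 4 of 7 subunits were called, with a median of 0.23.

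Of the mitochondrial chaperones, HSPD1 rose. HSPD1, the chaperonin HSP60 of the matrix, stood at 422, 433 and 463 CPM in the control and 562, 579.7 and 594 CPM with HPPE (0.40 ± 0.08, 1.32-fold, adjusted p = 0.00555). It stood at 446, 415 and 417 CPM with zinc protoporphyrin and 447, 405 and 417 CPM with tin protoporphyrin, overlapping the controls. HSPE1, its lid HSP10, had the largest estimate of the class but spread widely on few reads, at 8.20, 11.5 and 14.04 CPM in the control and 13.8, 20.9 and 20.9 CPM with HPPE. These groups overlapped, and the change of 0.80 ± 0.27 did not pass (adjusted p = 0.112). Its zinc and tin libraries held 10.5, 12.2 and 6.86 CPM and 16.9, 8.66 and 12.5 CPM. HSPA9, the matrix HSP70 (0.19 ± 0.07, adjusted p = 0.178), the J-protein DNAJA3 (0.08) and the matrix HSP90 TRAP1 (-0.10) were not called. HSPD1 overlaps 14.2% of the exon bases of HSPE1 on the opposite strand. The annotation names 18 pseudogenes for HSPD1 and 26 for HSPE1, and how reads that fit several places were counted is not given in the sources used here.

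HSPD1 and HSPE1 are transcribed away from each other from starts 105 bases apart on chromosome 2. The HSPD1 stretch shown, from chr2:197500062-197500090 (minus strand), lies before its second RefSeq start, 539 bases from the start of HSPE1, and has 3 overlapping matches, thus 4 units in a row.
HSPD1: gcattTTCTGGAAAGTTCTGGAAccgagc

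Neither heat shock factor was called with HPPE. HSF1 stood at 61.8, 68.5 and 68.3 CPM in the control, 64.5, 66.9 and 69.97 CPM with HPPE, 70.8, 66.9 and 61.2 CPM with zinc protoporphyrin and 77.6, 63.5 and 74.2 CPM with tin protoporphyrin. The 4 groups overlapped, and the log2 fold change with HPPE was 0.02 ± 0.09, with a 95% interval of -0.17 to 0.22. HSF2 stood at 39.8, 43.3 and 34.5 CPM in the control, 42.1, 44.1 and 46.9 CPM with HPPE, 34.6, 37.3 and 34.4 CPM with zinc protoporphyrin and 38.3, 37.6 and 36.5 CPM with tin protoporphyrin. Its change with HPPE was 0.13 ± 0.10 (95% interval -0.07 to 0.33), and the HPPE and control libraries overlapped. These are levels of RNA, which say nothing of the activity of either factor.

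SERPINH1, the collagen chaperone HSP47 of the endoplasmic reticulum, stood at 77.4, 78.9 and 106 CPM in the control and 148, 170.3 and 169.7 CPM with HPPE (0.94 ± 0.14, 1.92-fold, adjusted p = 0.000457). It stood at 114, 88.8 and 76.6 CPM with zinc protoporphyrin and 119, 92.02 and 97.3 CPM with tin protoporphyrin, overlapping the controls. UBB, a polyubiquitin gene, went from 144, 148 and 195 CPM to 196, 233 and 208 CPM with HPPE and did not pass (0.42 ± 0.14, adjusted p = 0.113), although all HPPE libraries exceeded all controls. The porphyrins left UBB at 179.9, 146 and 122 CPM (zinc) and 185, 135 and 158 CPM (tin). The SERPINH1 stretch, from chr11:75562169-75562197 (plus strand), has the 3-unit form.
SERPINH1: ttccaactTTCCAGAAGTTTCtcgggacg

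Over all windows, RefSeq promoters (250 bases before to 50 after a start) were at hand for 43 members, with 63 windows. HSPA14, FKBP4, ST13, STUB1, CRYAB and HSF1 had none. A 2-unit match on either strand was found in 22 of 43 members (51.2%), against 16.2% of the 27305 genes of the table and 13.7% of the tested genes in it. The 3-unit form was found in 8 members (18.6%), against 0.608% of all genes: HSPA8, HSP90AA1, HSP90AB1, DNAJA1, DNAJB6, CHORDC1, HSPD1 and SERPINH1. Of the 18 members with a window that were called higher with HPPE, 13 (72.2%) held a 2-unit match and 5 (27.8%) the 3-unit form. Of the 25 that were not called, 9 (36.0%) held the former and 3 (12%) the latter. Genes with more windows have more room for a match; per window the 2-unit share was 36.5% for members and 13.5% for the table. The core TGACNNNGC of the antioxidant response element, the site of NRF2, was found on either strand in 10 of 43 members (23.3%) against 16.1% of the table and 19.4% of the tested genes in it. It was in 2 of the 18 that were called (11.1%) and in 8 of the 25 that were not (32.0%). A match describes letters in the window and is not a mapped binding site, and no test was made of these shares.

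**Figure D4:**
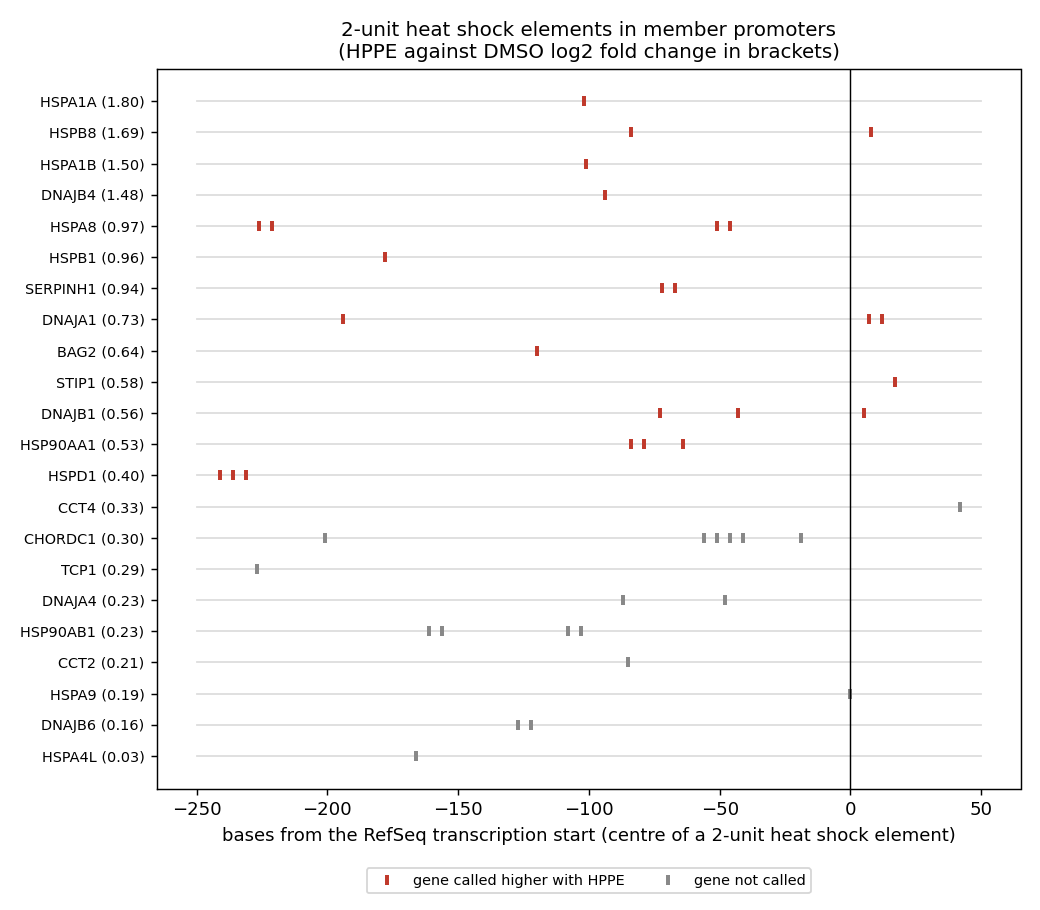
Distance in bases from the transcription start (x axis, 0 at the start) of each 2-unit heat shock element match in the 22 members that have one, pooled over a gene's windows, ordered by log2 fold change of HPPE against DMSO control (in brackets). Red marks genes called higher (13 of 22); grey marks genes not called.

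Zinc and tin protoporphyrin each gave 1 called member, HSPB8, which was higher than in the control, and 0 lower. For zinc protoporphyrin 1.84% of all genes were called higher and 0.415% lower. For tin protoporphyrin the shares were 1.9% and 0.379%. The 1 of 49 called in each is near these shares. In 4 members every zinc library lay above every control and in 4 below, against 11.6% and 10.4% of all genes. For tin protoporphyrin 3 members lay above and 3 below, against 10.3% and 7.6%. The members' medians were -0.049 (zinc) and -0.023 (tin), against -0.0038 and 0.0092 for all genes, and 12 and 21 of 49 estimates were above 0. At an unadjusted p under 0.05, 2 members were higher and 3 lower with zinc protoporphyrin, beside 10.9% and 7.79% of all genes. With tin protoporphyrin 3 were higher and 2 lower, beside 8.65% and 6.08%. DESeq2 called 0 members with zinc and 1 with tin. The lower ones were HSPA1B, PTGES3 and CCT8 (zinc) and HSPA1B and HSP90AB1 (tin). CCT8, a TRiC subunit, came nearest to a call, at 120.5, 149 and 122 CPM with zinc protoporphyrin against 160.5, 159 and 185 CPM in the control. All zinc libraries lay below all controls (-0.34 ± 0.10, adjusted p = 0.0789), and 4 of 23 alternatives called it, among them the fits without zinc protoporphyrin 2 or tin protoporphyrin 2. Without tin protoporphyrin 2, CCT8 and HSPB8 were thus both called.

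The 3 compounds were at the same dose and time, and all 3 pairs were compared directly. With HPPE, 32 of 49 members were called higher than with zinc protoporphyrin and 17 higher than with tin protoporphyrin, and 0 were called lower in either. Over all genes, 6.44% were higher and 6.26% lower with HPPE than with zinc protoporphyrin, and 0.745% and 0.709% than with tin protoporphyrin. At an unadjusted p under 0.05, 0 members were lower than with zinc protoporphyrin and 1 (BAG5) than with tin protoporphyrin. DESeq2 called 31 and 18 higher and 0 lower, and its shares of all genes are not given here. The members' medians were 0.44 over zinc and 0.36 over tin protoporphyrin, against 0.0068 and 0.0032 for all genes. In 40 members every HPPE library lay above every zinc library (19% of all genes), and in 32 above every tin library (9.81%).

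The members called higher with HPPE than in each of the other groups were 14: HSPA1A, HSPA1B, HSPA8, HSPH1, HSP90AA1, DNAJA1, DNAJB1, DNAJB4, STIP1, FKBP4, PTGES3, HSPB1, HSPD1 and SERPINH1. These 3 comparisons share the HPPE libraries. HSPA1A was higher by 1.81 ± 0.14 over zinc (3.5-fold, adjusted p = 7.02e-07) and 1.93 ± 0.13 over tin protoporphyrin (3.8-fold, adjusted p = 8e-08). HSPA8 was higher by 0.97 ± 0.08 (adjusted p = 3.21e-06) and 0.95 ± 0.08 (adjusted p = 2.81e-06). DNAJB4 was higher by 1.21 ± 0.12 (adjusted p = 1.34e-05) and 1.29 ± 0.11 (adjusted p = 2.5e-06). HSP90AB1, TCP1 and CCT4 passed over both porphyrins but not over DMSO. The calls over tin protoporphyrin of HSP90AB1, PTGES3, HSPB1, TCP1, CCT4 and SERPINH1 were lost in at least 1 of 23 alternatives.

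The members that passed over zinc protoporphyrin alone were 11: HSPA14, DNAJB2, DNAJB6, AHSA1, CDC37, CCT2, CCT5, CCT8, HSPE1, HSF2 and UBB. Each of these 11 calls was lost in some of the 23 alternatives, from 2 for AHSA1 and DNAJB6 to 8 for HSPE1, 9 for CCT5 and 15 for HSF2, whose call DESeq2 did not make. Of the 7 TRiC subunits in the set, 6 passed over zinc and 2 (TCP1 and CCT4) over tin protoporphyrin. CCT6A, outside the set, passed over zinc (0.255 ± 0.075, adjusted p = 0.037) but not over tin protoporphyrin (0.27 ± 0.074, adjusted p = 0.0906). The number called over zinc protoporphyrin fell to 14 without zinc protoporphyrin 3, to 15 without HPPE 2 and to 20 without HPPE 3. These are also the groups whose length trends lay furthest apart, and a fit with length and GC content taken out called 31 higher and 2 lower (STUB1 at -0.43 and TRAP1 at -0.23) over zinc, with a median of 0.27 in place of 0.44. The number over tin protoporphyrin fell to 11 without HPPE 2, HPPE 3 or tin protoporphyrin 3, and with HPPE 2 and 3 summed. HSPB8 was higher with HPPE than with zinc protoporphyrin (0.82 ± 0.17, adjusted p = 0.00904), a call lost without HPPE 2 or zinc protoporphyrin 3. It was not called against tin protoporphyrin (0.59 ± 0.15, adjusted p = 0.067).

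**Figure D5:**
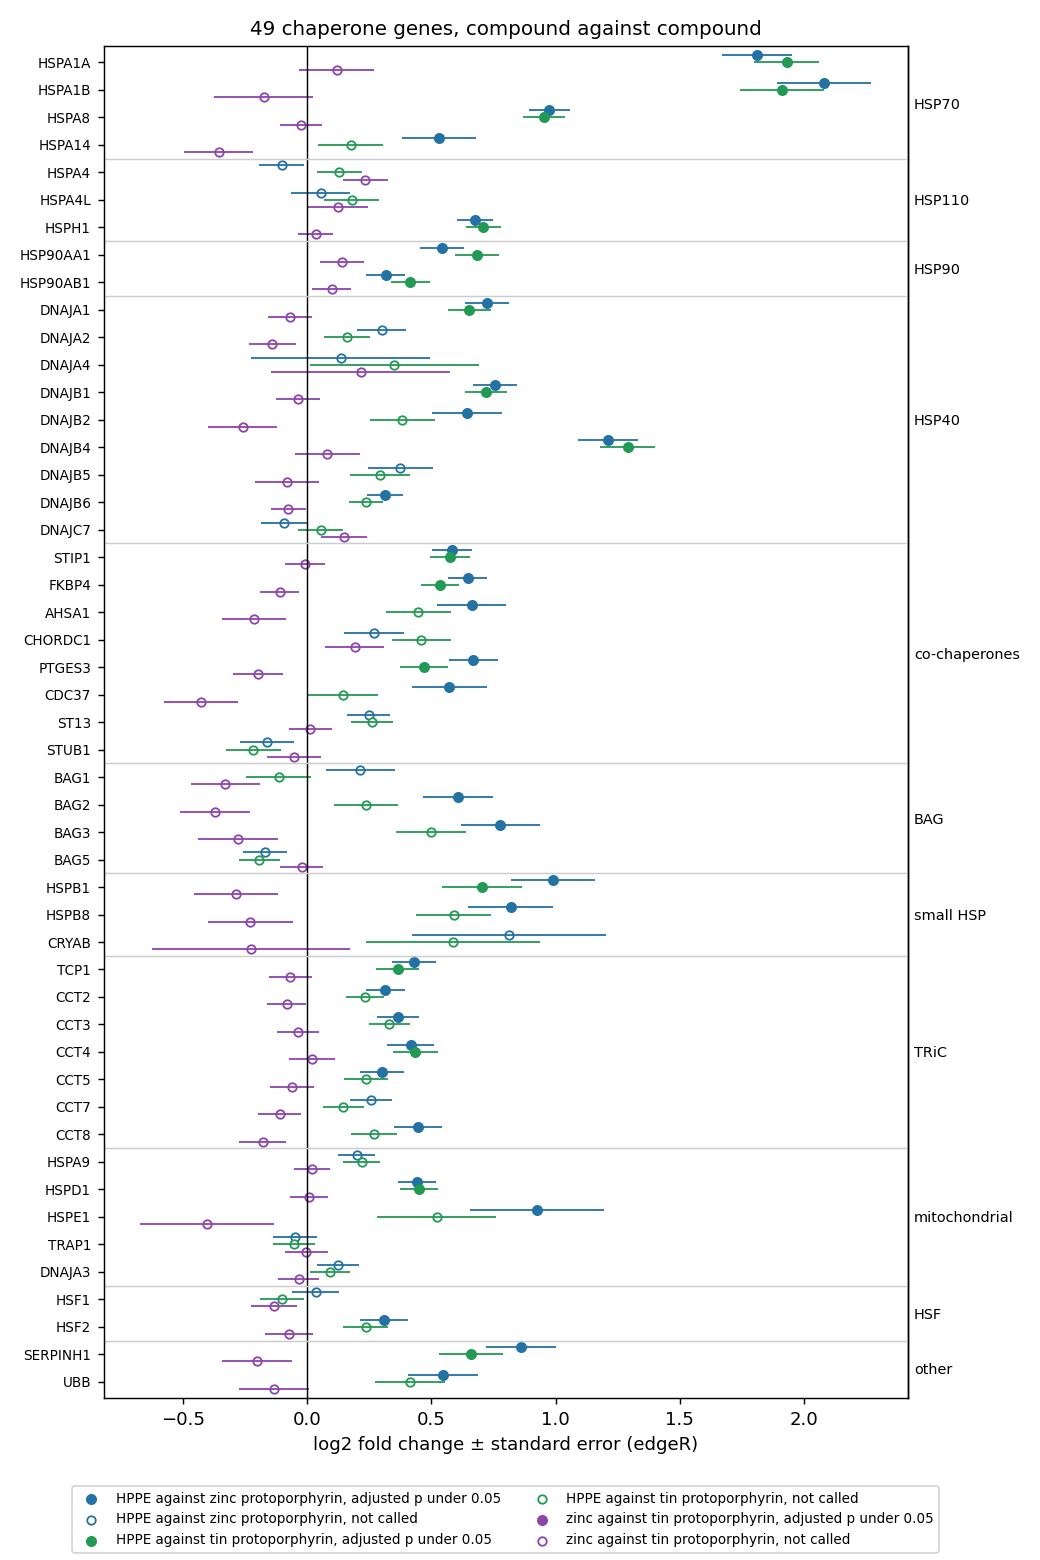
Log2 difference (x axis, with standard error) of each member between compounds: HPPE over zinc protoporphyrin (blue), HPPE over tin protoporphyrin (green) and zinc over tin protoporphyrin (purple); filled points passed an adjusted p under 0.05. The 17 members filled in green are also filled in blue, 15 more are filled in blue alone, and no purple point is filled.

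Zinc and tin protoporphyrin, which differ in the metal at the centre of the ring, were not told apart by any member. Of 49 members 0 were called, against 0.00611% of all genes called higher and 0% lower, and DESeq2 called 0. The median difference was -0.07 (-0.0074 for all genes). In 2 members every zinc library lay above every tin library, against 6.56% of all genes, and in 3 below, against 6.38%. At an unadjusted p under 0.05, HSPA4 was higher and HSPA14, CDC37, BAG1 and BAG2 were lower with zinc than with tin protoporphyrin, beside 6.38% and 6.92% of all genes. CDC37 was furthest, at 130.3, 135 and 108 CPM with zinc and 197, 126 and 177 CPM with tin protoporphyrin, and these overlapped (-0.43 ± 0.15, adjusted p = 0.353). Without tin protoporphyrin 2, 3 members were called (BAG1 and CDC37 lower, HSPA4 higher). The share of all genes called in that fit is not given here. The failure to pass does not show that the compounds act alike. The 95% interval of the difference was -0.19 to 0.43 for HSPA1A, -0.20 to 0.15 for HSPA8, -0.11 to 0.18 for HSPH1, -0.05 to 0.33 for HSP90AA1 and -0.59 to 0.13 for HSPB8. The intervals of HSPA8 and HSPH1 were thus the narrowest of these 5, and that of HSPB8 the widest.

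In the control, abundance per length spanned a wide range. After the HSP90 genes came HSPA8 at 452 ± 26.5 RPKM (SD, n = 3), CCT3 at 183 ± 11.2 RPKM and HSPD1 at 179 ± 8.64 RPKM. CCT3 and HSPD1 do not differ beyond their spread. HSPA1A and HSPA1B stood at 8.94 ± 1.16 and 10.1 ± 1.06 RPKM, near the bottom, ranked 41 and 38 of 49. With HPPE they reached 30 ± 1.19 and 27.9 ± 1.3 RPKM, still far under HSPA8 at 884 ± 41.5 RPKM. Reads that fit both of these near-identical copies, or AL671762.1 over HSPA1B, may have been dropped in counting. Their levels and ranks may thus be too low. The lowest were HSPB8 at 1.74 ± 0.0688 RPKM and DNAJA4 at 0.604 ± 0.0418 RPKM. Of the 4 members with the largest fold changes, HSPA1A, HSPB8, HSPA1B and DNAJB4, none ranked above 38 in the control, as counted.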

How the data were processed

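The authors' deposited table gives raw read counts per Ensembl gene for 12 libraries, with no normalization; per the submitters' processing notes fastp 0.21.1, STAR 2.7.7a and featureCounts were used with GRCh38, and strand and multi-mapping settings are not given in the sources used here. Groups came from the sample labels. Total counts of 1337028 to 9145399 per library set the precision. Genes were kept by filterByExpr (16366 of 60710), scaled by TMM and fitted with edgeR 4.0.16 (R 4.3.3) by the quasi-likelihood test with robust estimation, all 12 libraries together and no covariates, with Benjamini-Hochberg adjustment and a threshold of 0.05. CPM and RPKM were computed from the counts, RPKM with GENCODE transcript lengths. Alternatives (23) changed scaling, filters, estimation, the test (DESeq2 1.42.0), blocks, trends and libraries left out. HPPE 2 and 3 were the closest pair within a group (chi-square per gene 1.11; 1.49 to 17.3 for the others). They were kept as 2 libraries, as labelled; whether they are separate cultures is not known, and a fit with the pair summed is among the alternatives. The members, lists and motifs were chosen with earlier results of these data known. Values in every library are given for the 2 members of a class with the largest HPPE estimate (4 for J-domain genes and co-chaperones), both HSF and HSP90 genes and the top 4 calls of the other comparisons; BAG5, CCT8 and CDC37 were added after their values were seen. Promoter windows are RefSeq's, GRCh38.p14; printed stretches end before the start, and those meeting an annotated UTR are held to 30 bases.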

Additional observations from a re-analysis of the deposited data

How the results depend on the processing

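Of the members called for HPPE against DMSO, 14 of 19 were called in all 23 alternatives, as were 1 of 1 for tin protoporphyrin, 0 of 1 for zinc protoporphyrin, 14 of 32 for HPPE against zinc and 11 of 17 for HPPE against tin protoporphyrin. With a term for the axis that separates libraries within groups (52.7% of the variance left within groups, found in these same libraries), members called became 34 for HPPE against DMSO (33 higher, 1 lower; 8.85% and 7.47% of all genes), 14 for zinc protoporphyrin (4 higher, 10 lower; 13.7% and 11.7%) and 8 for tin protoporphyrin against DMSO (4 higher, 4 lower; 7.7% and 5.79%). It called 9 between the porphyrins (3 higher with zinc, 6 lower; 7.46% and 6.9%) and 37 where HPPE was set against tin (36 higher, 1 lower; 8.29% and 7.56%). The sum of HSPA1A and HSPA1B was then lower than with DMSO for both porphyrins. The log2 difference was -0.349 for zinc (adjusted p = 0.0195) and -0.327 for tin protoporphyrin (adjusted p = 0.0331). Without the filter, 4 members were called for zinc protoporphyrin against DMSO and 1 for zinc against tin protoporphyrin. The zinc call was 0 with the compared groups only, with HPPE 2 and 3 summed and with DESeq2, and HPPE against tin protoporphyrin gave 11 with those libraries summed. With length and GC content taken out, tin protoporphyrin against DMSO gave 2. The cause was not tested. Apart from the fit with the axis term, shares of all genes called are not given for the alternatives, here or elsewhere. From what is printed here, their counts of members thus cannot be set against all genes. Leaving out 1 library at a time gave 14 to 23 members for HPPE against DMSO, 14 to 36 for HPPE against zinc, 11 to 22 for HPPE against tin protoporphyrin, 0 to 2 for zinc and 1 to 1 for tin protoporphyrin against DMSO, and 0 to 3 for zinc against tin protoporphyrin. The HSPA1A plus HSPA1B difference then ran from 1.57 to 1.70 (HPPE against DMSO), 1.66 to 2.06 (HPPE against zinc), 1.83 to 2.00 (HPPE against tin), -0.427 to -0.0269 (zinc against DMSO), -0.370 to -0.188 (tin against DMSO) and -0.148 to 0.25 (zinc against tin).

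Replicate numbers do not pair the libraries: deviations of same-numbered libraries correlated from -0.68 to 0.52 over 18 pairs, 5 of them over 0.1, and 3 of 12 libraries correlated best with their own number. The fit with the replicate block called 18 members for HPPE, 0 for zinc and 1 for tin protoporphyrin against DMSO, 26 and 13 for HPPE against zinc and tin protoporphyrin, and 0 between those compounds. Depth limits scarce members most: DMSO control 3 gave HSPB8 6 counts and DNAJA4 3.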

Other observations

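Genes outside the 49 were read from 3 lists, with edgeR's quasi-likelihood test and adjusted p-values over all 16366 genes. Of 20 other cytosolic folding genes, 2 rose with HPPE over DMSO, and the median log2 fold change of the list was 0.19. HSPA2, a further HSP70 gene, went from 24.8 ± 5.27 CPM (SD, n = 3) in the control to 37.9 ± 1.17 CPM with HPPE, a change of 0.70 ± 0.12 (adjusted p = 0.00202). It also rose with zinc protoporphyrin, to 33.7 ± 2.16 CPM (0.50 ± 0.13, adjusted p = 0.0464), and with tin protoporphyrin, to 33.7 ± 2.09 CPM (0.53 ± 0.12, adjusted p = 0.0234). HSPA2 thus stands beside HSPB8 as a gene called higher with each compound against the shared controls. The zinc call of HSPB8 was lost in 12 of 23 alternatives, and the calls of HSPA2 were not followed through them. CACYBP, which binds HSP90 and ubiquitin ligases, went from 92.2 ± 13.8 to 132.4 ± 8.67 CPM with HPPE (0.56 ± 0.11, adjusted p = 0.0086) and stood at 80.8 ± 8.94 and 88.8 ± 12.5 CPM with zinc and tin protoporphyrin. BAG4, a nucleotide exchange factor, had the lowest estimate of the list and did not pass (-0.44 ± 0.13, adjusted p = 0.079).

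Among 7 tested of 8 other heat-inducible genes (HSPA6 had too few counts), SQSTM1, the autophagy receptor p62 and also a known NRF2 target, rose with HPPE from 87.4 ± 6.79 to 218 ± 13 CPM (1.3 ± 0.09, adjusted p = 4.74e-08). The other 6 had estimates above 0 and were not called, and the median of the 7 was 0.31. Of 14 other mitochondrial proteostasis genes (proteases, import motor and their partners), edgeR called 0 with HPPE against DMSO and the median was 0.054. At an unadjusted p under 0.05 there was 1, CLPB, a disaggregase of the intermembrane space, at -0.24 ± 0.11 (adjusted p = 0.277). CLPB was lower with HPPE than with zinc protoporphyrin, at 130 ± 7.34 against 173.9 ± 11.5 CPM (-0.41 ± 0.11, adjusted p = 0.0311). It was the 1 of 14 called lower there, with 0 higher, beside 6.26% and 6.44% of all genes. In the same comparison 6 of 20 other cytosolic folding genes and 5 of 7 other heat-inducible genes were called higher, and 0 lower.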
